A study of Daphnia magna with 9 samples.

Results

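The cuticle protein genes expressed in whole Daphnia magna, a freshwater crustacean (water flea), numbered 117 of the 42462 genes in the deposited table. They were chosen by name (cuticular protein, cuticle protein, endocuticle, cuticlin or cuticle structural) and by a mean of at least 10 reads over the 9 libraries. Of 342 genes with such a name, the other 225 were below that mean, and 87 of these had 0 reads in all libraries. Just inside the limit were Dapma7bEVm010090t1, Dapma7bEVm010082t1 and Dapma7bEVm006691t1 with means of 11.1, 10.9 and 10 reads. Just outside it were Dapma7bEVm022898t1, Dapma7bEVm018734t1 and Dapma7bEVm004955t1 with 9.78, 9.56 and 9.44 reads. The label was compared with a Gene Ontology term in the table that the rule did not use, and 109 of the 117 genes carried structural constituent of cuticle. The authors annotated genes by their homologs, so name and term may share a source and are not an independent check. A further 84 genes of the table carried the term without such a name.

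Polyadenylated RNA was sequenced in 3 groups of 3 libraries, each library made from the total RNA of 5 pooled females without their eggs at postnatal day 12, when they released their 2nd clutch. The starved mutant (DNMT3.1-/-) carried a frameshift on both alleles of DNMT3.1, a DNA methyltransferase 3 gene, made with CRISPR/Cas in the NIES background, and was 1 line. The starved wild type was the NIES strain. The nutrient-rich mutant was the same mutant line fed daily with Chlorella algae, of which starved animals were given 8-fold less. Both lines were bred at a common food level for generations before the treatment. The starved mutant was set against the starved wild type, which asks for the effect of the mutation under starvation, and against the nutrient-rich mutant, which asks for the effect of food in the mutant. Both comparisons share the starved mutant libraries, and nutrient-rich wild-type animals were not analysed here.

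The arthropod cuticle is an extracellular layer that the epidermis secretes from its apical side. Chitin fibres are embedded in a matrix of structural proteins, most of which bind chitin through the Rebers-Riddiford domain, and different proteins are laid down in the outer and the inner layers. Crustaceans grow by moulting. Adult Daphnia pass through a moult with each brood, and a new cuticle is made under the old one before it is shed, so that the genes of the cuticle are switched on and off in sequence. The hormone 20-hydroxyecdysone and a chain of nuclear receptors time that sequence.

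Libraries held 9270993 to 11806614 reads counted on genes. The nutrient-rich mutant replicate 2 stood apart, with a scaling factor of 0.749 where the other 8 had 0.928 to 1.13, and with the highest summed level of DNA replication and germ line genes (below). DNMT3.1 itself (Dapma7bEVm006722t1) was at 87.6, 40.0 and 61.7 CPM (counts scaled to library size) in the starved mutant, at 85.2, 111 and 79.2 in the starved wild type and at 10.8, 4.40 and 9.69 in the nutrient-rich mutant. The transcript was still counted in the frameshift mutant, so these levels do not check the genotype. RNA was taken from whole bodies, in which fewer cells of a type and less RNA per cell cannot be told apart. The animals were kept singly, and the treatment was done anew for each of the 3 libraries of a group.

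The cuticle protein genes took a larger share of the reads in the starved mutant than in starved wild-type animals. Their share was 0.921, 1.14 and 1.03% of counted reads in the starved mutant, against 0.750, 0.717 and 0.777% in the starved wild type, and these groups did not overlap. This rise was the net of rises and falls. Genes named endocuticle structural glycoprotein summed to 2058, 3989 and 3109 CPM in the starved mutant, against 698.8, 552.5 and 820.6 CPM in the starved wild type. The sum of the genes named cuticular protein 72Eb overlapped between these groups, but 1 of them, Dapma7bEVm015211t1, rose strongly. It was at 895, 2850 and 1880 CPM of a sum of 8307, 10330 and 9150 CPM in the starved mutant. In the starved wild type it was at 11.3, 2.60 and 20.2 CPM of 7105, 7086 and 7470 CPM. Without this gene the sums in CPM of the starved groups overlapped, whereas their shares of counted reads did not. In the nutrient-rich mutant the share was 1.01, 0.523 and 0.851%, which overlapped with the starved mutant. Of the 117 genes, 31 had a mean under 10 reads over the 6 libraries of the other groups and were members through the starved mutant alone, whereas 7 had a mean under 10 reads in the starved mutant. Counts of low genes and medians over the members therefore follow in part from how they were chosen, and are given as a description. Of the 117 genes, 9 to 12 were under 1 CPM in a starved mutant library, against 38 to 40 in a starved wild-type library and 28 to 53 in a nutrient-rich mutant library. The 10 genes with the most reads in a library took 57.6 to 64.9% of its cuticle reads in the starved mutant, against 70.7 to 75.4% in the starved wild type and 67.4 to 82.4% in the nutrient-rich mutant. The median member was at 11.4 CPM in the starved mutant, against 3.17 CPM in the starved wild type and 3.54 CPM in the nutrient-rich mutant, as medians of group means.

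**Figure D1:**
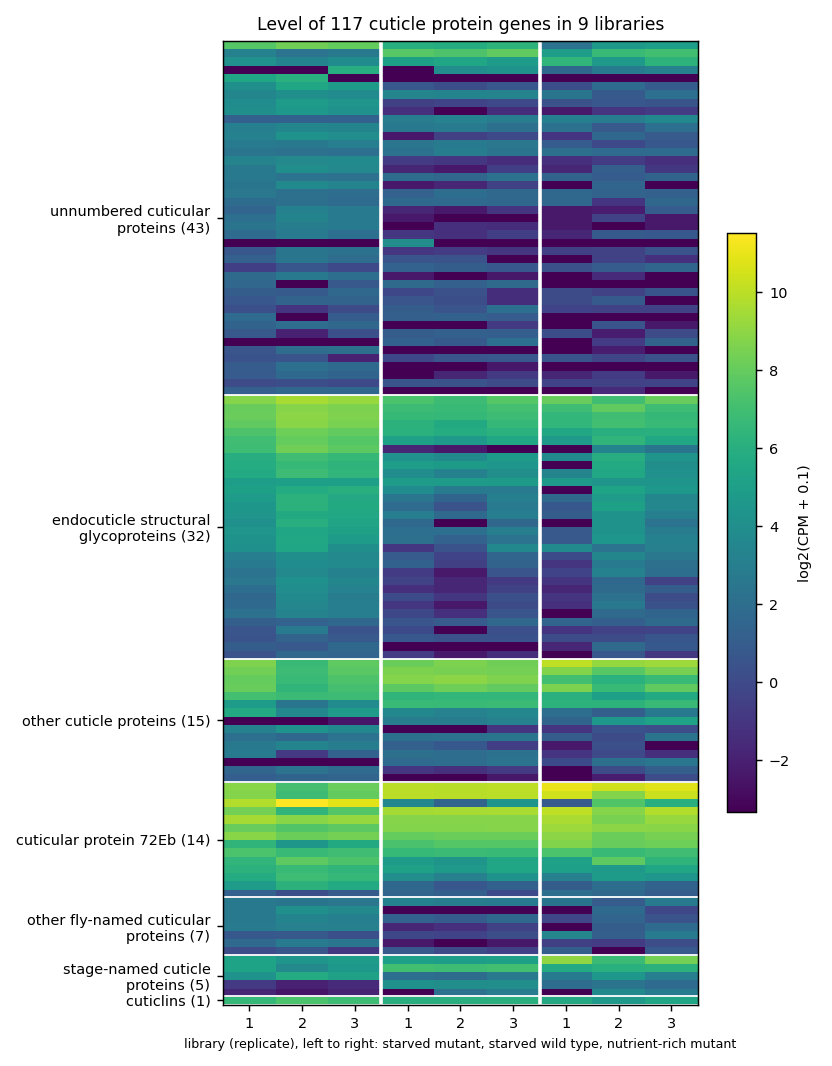
Level of each of the 117 genes as log2(CPM + 0.1), with 1 row per gene, ordered by name group and by mean level, and 1 column per library. Dark rows, near 0 reads, are common in the starved wild type (38 to 40 genes under 1 CPM per library) and the nutrient-rich mutant (28 to 53), and few in the starved mutant (9 to 12), and 31 rows are present through their reads in the starved mutant alone.

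Per length of transcript, the leading genes differed between the groups. By the deposited RPKM (reads scaled to transcript length and library size), which allows levels of different genes to be compared, the cuticular protein 72Eb gene Dapma7bEVm015211t1 was highest in the starved mutant, with a group mean of 1565 RPKM, against 8.41 RPKM in the starved wild type and 43.9 RPKM in the nutrient-rich mutant. The endocuticle structural glycoprotein SgAbd-1 genes Dapma7bEVm002034t1 and Dapma7bEVm027760t1 followed in the starved mutant at 911 and 880 RPKM. In the starved wild type the highest were a pair of other 72Eb genes, Dapma7bEVm001605t1 at 1137 RPKM and Dapma7bEVm027612t1 at 1104 RPKM. Dapma7bEVm027612t1 was also highest in the nutrient-rich mutant, at 1634 RPKM.

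Of the 117 genes, 115 passed the filter on low counts and were tested. A gene was called at an edgeR adjusted p under 0.05 over all 18675 tested features and a fold change of at least 1.5. Against the starved wild type, 41 of 115 cuticle protein genes were higher in the starved mutant (35.6%, where 2.92% of all tested features were higher) and 12 were lower (10.4%, where 4.24% of all were lower). Against the nutrient-rich mutant, 44 were higher (38.3%, where 11.1% of all were higher) and 16 were lower (13.9%, where 12.0% of all were lower). The median log2 fold change of the 115 was 1.91 against the starved wild type, where that of all tested features was -0.0025. It was 1.63 against the nutrient-rich mutant, where that of all features was -0.067. The quartiles of the 115 were -0.26 and 3.66 against the starved wild type, and 0.28 and 2.67 against the nutrient-rich mutant. Genes without reads in a group lay beyond these medians, so that their fitted values do not move them. At an unadjusted p under 0.05, 64 genes were higher and 17 lower than in the starved wild type, and 63 were higher and 18 lower than in the nutrient-rich mutant.

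Part of these counts follows from how the genes were chosen. Of the 41 genes higher than in the starved wild type, 20 had a mean under 10 reads over the other 6 libraries and so met the limit of 10 reads through the starved mutant alone. Of the 44 higher than in the nutrient-rich mutant, 19 did. Ratios and calls of such genes, given below, follow in part from this choice as well. Among the genes that were lower, 0 of the 12 and 0 of the 16 had a mean under 10 reads in the group they were set against, and 3 and 3 were under it in the starved mutant. The counts against the starved wild type fell when 1 library of either starved group was left out, except starved mutant replicate 1, and so did those of all features. All features called were 1337, and 651 and 515 without starved mutant replicates 2 and 3. They were 576, 592 and 752 without starved wild-type replicates 1, 2 and 3. The median log2 fold change of the members was 1.72 to 1.96 in these fits. The 41 became 25 and 22 without starved mutant replicates 2 and 3, and 20, 20 and 27 without starved wild-type replicates 1, 2 and 3, while the 12 became 5 without starved mutant replicate 3 and 7 without any 1 of the starved wild-type replicates.

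Of the 53 genes called against the starved wild type and the 60 called against the nutrient-rich mutant, 0 were called in opposite directions. There were 69 genes called in at least 1 comparison and 46 called in neither. The groups of 3 libraries did not overlap in 74 genes that were higher and 20 that were lower than in the starved wild type, where 20.1% and 21.1% of all tested features were separated in such a way. These numbers were 61 and 15 against the nutrient-rich mutant, with 20.03% and 20.3% of all features.

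**Figure D2:**
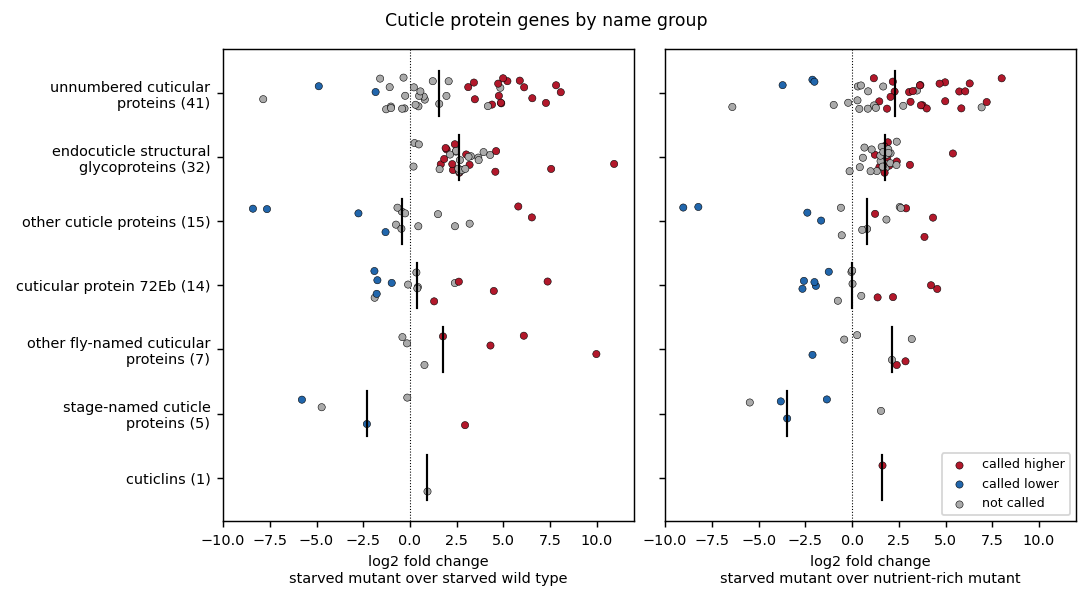
log2 fold change of the 115 tested genes by name group, starved mutant over starved wild type (left) and over nutrient-rich mutant (right). Each point is a gene, vertical bars are medians, and colours mark the genes called higher or lower. Endocuticle structural glycoproteins lie almost wholly to the right of 0, with 14 and 10 called higher and 0 called lower, whereas the 72Eb genes lie on both sides.

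The counts of each name group stand beside the shares of all tested features. These were 2.92% higher and 4.24% lower than in the starved wild type, and 11.1% and 12.0% against the nutrient-rich mutant. The endocuticle structural glycoproteins, named after proteins first isolated from the abdominal inner cuticle of the desert locust, were the most uniform group. Of 32 genes, 14 were higher and 0 lower than in the starved wild type, with a median log2 fold change of 2.64 and a lowest value of 0.19. Against the nutrient-rich mutant 10 were higher and 0 lower, with a median of 1.74 and a lowest value of -0.13. Their summed level was 2058, 3989 and 3109 CPM in the starved mutant, against 698.8, 552.5 and 820.6 CPM in the starved wild type and 713.9, 1192 and 890.6 CPM in the nutrient-rich mutant. The 3 starved mutant libraries were above all of the other 6. The count of 14 fell to 5 without starved wild-type replicate 1 or 2, and the count of 10 fell to 6 without starved mutant replicate 2.

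The SgAbd-1 gene with the most reads, Dapma7bEVm002034t1, was at 441, 755 and 602 CPM in the starved mutant, against 156, 116 and 191 CPM in the starved wild type and 263, 125 and 264 CPM in the nutrient-rich mutant. It was higher in each starved mutant library than in each of the other 6, by a log2 fold change of 1.96 (SE 0.33, edgeR adjusted p = 0.00908) against the starved wild type and 1.46 (SE 0.33, edgeR adjusted p = 0.0109) against the nutrient-rich mutant. Without starved wild-type replicate 1 the first adjusted p was 0.0504. Another SgAbd-1 gene, Dapma7bEVm010637t1, was almost silent outside the starved mutant. It had 1276, 4054 and 2487 reads in the starved mutant, against 2, 1 and 0 reads in the starved wild type and 0, 82 and 51 reads in the nutrient-rich mutant. The ratio of the starved mutant to the starved wild type was 2240 (95% counting interval 767 to 10900, counting error only), and the log2 fold change against the nutrient-rich mutant was 5.39 (SE 0.97, edgeR adjusted p = 0.00393). Both comparisons called it, against the starved wild type at an edgeR adjusted p of 0.00274.

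A lowly expressed SgAbd-1 gene, Dapma7bEVm029073t1, was at 1.97, 1.69 and 3.11 CPM in the starved mutant and at 0 reads in each starved wild-type library. It was at least 22.8-fold higher in the starved mutant, taken against a floor of 3 reads over the starved wild-type group (edgeR adjusted p = 0.0337). It was at 0.199, 3.39 and 1.58 CPM in the nutrient-rich mutant, with a log2 fold change of 0.41 (edgeR adjusted p = 0.751). The call against the starved wild type was lost under 8 of 17 alternatives, among them without any 1 of the starved mutant or starved wild-type replicates and without nutrient-rich mutant replicate 3, with an adjusted p of up to 0.109 over all alternatives.

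**Figure D3:**
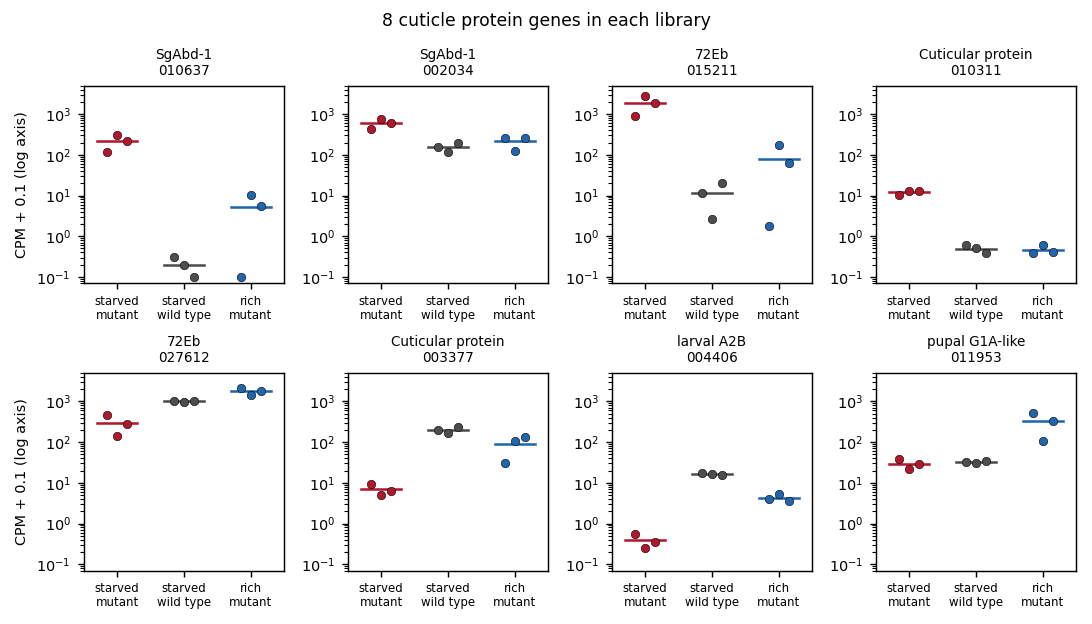
CPM + 0.1 (log axis) of 8 cuticle protein genes in each library, with the group mean as a bar. The upper 4 genes are highest in all 3 starved mutant libraries. Of the lower 4, Dapma7bEVm027612t1, Dapma7bEVm003377t1 and Dapma7bEVm004406t1 are lowest there, while the pupal G1A-like gene is at a like level in both starved groups (38.0, 21.3 and 28.8 CPM in the starved mutant, 32.3, 31.0 and 34.0 CPM in the starved wild type) and high in the nutrient-rich mutant.

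Genes named cuticular protein without the name of a fly gene, called unnumbered here, made the largest group, with 43 genes, 2 of them named RR-2 motif 132 precursor, and 41 of the 43 were tested. Of these, 16 were higher and 2 lower than in the starved wild type (median log2 fold change 1.56), and 23 were higher and 3 lower than in the nutrient-rich mutant (median 2.27). Their summed level was 439.0, 688.5 and 569.2 CPM in the starved mutant, against 380.6, 355.2 and 428.0 CPM in the starved wild type and 169.0, 209.2 and 303.2 CPM in the nutrient-rich mutant. The 3 starved mutant libraries were above the other 6 in this sum as well.

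In this group the genes with the smallest adjusted p were low in the starved wild type and the nutrient-rich mutant alike. Dapma7bEVm010311t1 was at 9.94, 12.6 and 13.0 CPM in the starved mutant, against 0.511, 0.400 and 0.285 CPM in the starved wild type and 0.298, 0.503 and 0.316 CPM in the nutrient-rich mutant. The log2 fold changes were 4.86 (SE 0.31, edgeR adjusted p = 0.000251) and 4.97 (SE 0.32, edgeR adjusted p = 4.5e-05). Dapma7bEVm010900t1 was at 14.9, 28.6 and 21.5 CPM in the starved mutant, against 0.613, 0.700 and 0.856 CPM in the starved wild type and 1.19, 1.51 and 1.37 CPM in the nutrient-rich mutant. The log2 fold changes of this gene were 4.88 (SE 0.32, edgeR adjusted p = 0.000251) and 3.99 (SE 0.30, edgeR adjusted p = 7.53e-05). For both genes all 3 starved mutant libraries were above the other 6. Both were members through the starved mutant alone, so that their calls follow in part from how members were chosen.

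Larger ratios belonged to genes with a handful of reads elsewhere, which met the limit of 10 reads through the starved mutant alone. Their ratios and calls follow in part from that choice. Dapma7bEVm018568t1 was at 16.5, 24.2 and 17.96 CPM in the starved mutant, against 0.306, 0 and 0.285 CPM in the starved wild type and 0.0993, 0.377 and 0.526 CPM in the nutrient-rich mutant (log2 fold changes 6.54 and 5.84, edgeR adjusted p = 0.000724 and 0.000209). Dapma7bEVm016175t1, which shares scaffold 512 with that gene, had 0 reads in the starved wild type. It was at least 32.5-fold higher in the starved mutant, at 1.41, 3.85 and 4.40 CPM (edgeR adjusted p = 0.00849). Dapma7bEVm010082t1 was likewise without reads in the starved wild type and at least 27.4-fold higher, at 2.25, 2.85 and 3.02 CPM (edgeR adjusted p = 0.00868). Dapma7bEVm002942t1 had 1 read in the starved wild type and was at 4.22, 10.01 and 6.65 CPM in the starved mutant (ratio 217, 95% counting interval 38.6 to 8600, edgeR adjusted p = 0.00214). These 4 genes were also called higher than in the nutrient-rich mutant.

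Dapma7bEVm022902t1 had no reads in the 3 nutrient-rich mutant libraries and was at least 28.3-fold higher in the starved mutant, at 1.88, 4.08 and 3.28 CPM (edgeR adjusted p = 0.0017). Dapma7bEVm018443t1 had 2 reads there and was at 5.16, 7.78 and 6.82 CPM in the starved mutant (ratio 91.8, 95% counting interval 25.1 to 763, edgeR adjusted p = 0.000491). Dapma7bEVm011009t1 also had 2 reads there and was at 3.38, 6.31 and 3.97 CPM in the starved mutant (ratio 64.1, 95% counting interval 17.5 to 534, edgeR adjusted p = 0.00132). These 3 genes were called higher than in the starved wild type too, and were likewise members through the starved mutant alone. A different case was Dapma7bEVm019522t1, at 3.47, 0 and 1.90 CPM in the starved mutant and 0 reads in the nutrient-rich mutant (at least 16.4-fold, edgeR adjusted p = 0.0474). It was at 2.15, 2.30 and 1.90 CPM in the starved wild type, and its call against the nutrient-rich mutant was lost under 10 of 16 alternatives, among them without any 1 library other than starved mutant replicate 2.

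The unnumbered gene with the most reads, Dapma7bEVm015276t1, was at 192, 317 and 253 CPM in the starved mutant, against 62.4, 58.4 and 76.3 CPM in the starved wild type and 4.87, 24.4 and 31.4 CPM in the nutrient-rich mutant. It was called against the nutrient-rich mutant (log2 fold change 3.65, SE 0.56, edgeR adjusted p = 0.0019). Against the starved wild type its groups did not overlap, and the log2 fold change of 1.95 (SE 0.52) missed the threshold at an edgeR adjusted p of 0.0568, with 7 of 17 alternatives calling it.

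A few unnumbered genes fell. Dapma7bEVm003377t1 was at 9.19, 4.85 and 6.30 CPM in the starved mutant, against 199, 166 and 234 CPM in the starved wild type and 30.5, 105 and 132 CPM in the nutrient-rich mutant. Each starved mutant library was below each other library, with log2 fold changes of -4.88 (SE 0.54, edgeR adjusted p = 0.00144) and -3.72 (SE 0.51, edgeR adjusted p = 0.00116). Dapma7bEVm005277t1 fell in both comparisons as well, to 2.25, 2.31 and 2.33 CPM in the starved mutant, against 7.76, 9.60 and 7.42 CPM in the starved wild type and 8.44, 7.42 and 12.1 CPM in the nutrient-rich mutant.

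The 72Eb genes, named after a Rebers-Riddiford gene of Drosophila, split into opposite directions. Of 14 genes, 4 were higher and 4 lower than in the starved wild type, and 4 were higher and 5 lower than in the nutrient-rich mutant. The 4 that were higher became 1 without starved mutant replicate 3 or starved wild-type replicate 1 or 2. Their summed level overlapped between the starved groups, at 4107, 4780 and 4291 CPM in the starved mutant, against 4217, 4173 and 4418 CPM in the starved wild type, and it reached 7171, 4252 and 5973 CPM in the nutrient-rich mutant. The composition of the sum differed. Dapma7bEVm015211t1 was at 895, 2850 and 1880 CPM in the starved mutant, against 11.3, 2.60 and 20.2 CPM in the starved wild type and 1.69, 174.5 and 63.5 CPM in the nutrient-rich mutant. The log2 fold changes of this gene were 7.36 (SE 1.49, edgeR adjusted p = 0.0194) and 4.55 (SE 1.30, edgeR adjusted p = 0.0315).

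The groups did not overlap for Dapma7bEVm015211t1, yet its call against the starved wild type was lost without starved mutant replicate 2 or 3 or any 1 starved wild-type replicate (adjusted p of up to 0.098). Against the nutrient-rich mutant it was lost without starved mutant replicate 2 or 3, starved wild-type replicate 1 or nutrient-rich mutant replicate 3, and in a fit on the 6 libraries alone (adjusted p of up to 0.0906). The gene had a second feature in the table, with log2 fold changes of 6.92 and 4.53 (edgeR adjusted p = 0.0122 and 0.0165). Of the other 3 genes that rose in both comparisons, Dapma7bEVm005611t1 had the largest change, at 29.7, 74.99 and 53.4 CPM in the starved mutant, against 3.17, 1.50 and 2.38 CPM in the starved wild type and 1.99, 4.02 and 2.53 CPM in the nutrient-rich mutant.

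The 72Eb genes that fell were among those with many reads. Dapma7bEVm027612t1 fell to 472, 141 and 281 CPM in the starved mutant, against 1009, 946.3 and 1038 CPM in the starved wild type and 2145, 1402 and 1782 CPM in the nutrient-rich mutant. The log2 fold changes were -1.74 (SE 0.38, edgeR adjusted p = 0.0246) and -2.58 (SE 0.39, edgeR adjusted p = 0.00167). Its second feature had -1.37 and -3.06 (edgeR adjusted p = 0.0245 and 0.000297). Dapma7bEVm001605t1 was at 338, 81.3 and 183 CPM in the starved mutant, against 716, 746 and 788 CPM in the starved wild type and 1081, 451 and 897 CPM in the nutrient-rich mutant (log2 fold changes -1.90 and -2.01, edgeR adjusted p = 0.0471 and 0.0151). For Dapma7bEVm022714t1 these levels were 268, 179 and 220 CPM, 438, 434 and 441 CPM, and 644, 476 and 465 CPM (log2 fold changes -0.98 and -1.25, edgeR adjusted p = 0.0141 and 0.00158).

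Dapma7bEVm027611t1 fell to 82.1, 23.2 and 50.4 CPM in the starved mutant, against 149, 192 and 194 CPM in the starved wild type and 412, 264 and 303 CPM in the nutrient-rich mutant (log2 fold changes -1.78 and -2.65, edgeR adjusted p = 0.0282 and 0.00184). Dapma7bEVm001607t1, at 438, 112 and 247 CPM in the starved mutant, against 1011, 953 and 990.5 CPM in the starved wild type and 1367, 436.5 and 1247 CPM in the nutrient-rich mutant, was called lower than in the nutrient-rich mutant (log2 fold change -1.94, edgeR adjusted p = 0.0241). Against the starved wild type its log2 fold change of -1.89 missed the threshold at an edgeR adjusted p of 0.0613, and 7 of 17 alternatives called it. All 4 falls against the starved wild type were lost without starved mutant replicate 3 or any 1 starved wild-type replicate, that of Dapma7bEVm022714t1 also without starved mutant replicate 2, and that of Dapma7bEVm001605t1 also without starved mutant replicate 2 and without nutrient-rich mutant replicate 1 or 3, with adjusted p of up to 0.183. Of the 5 falls against the nutrient-rich mutant, those of Dapma7bEVm001605t1 and Dapma7bEVm001607t1 were lost without starved mutant replicate 3, and that of Dapma7bEVm001607t1 also without starved mutant replicate 2 and without nutrient-rich mutant replicate 1 or 3.

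Genes named cuticle protein, most of them with a number or letter, moved both ways. Of these 15, 2 were higher and 4 lower than in the starved wild type (median log2 fold change -0.44), and 4 were higher and 4 lower than in the nutrient-rich mutant (median 0.80). Against the starved wild type, the 2 became 1 without starved mutant replicate 3 or any 1 starved wild-type replicate, and the 4 became 1 without starved mutant replicate 3. A pair of CB5 genes were all but absent from the starved mutant. Dapma7bEVm019601t1 had 0 reads in the starved mutant, against 3.47, 3.90 and 4.85 CPM in the starved wild type and 0.893, 4.40 and 5.58 CPM in the nutrient-rich mutant, so that it was at least 47.8-fold and 42.6-fold lower (edgeR adjusted p = 0.00864 and 0.00324). Dapma7bEVm009997t1 had 1 read over the 3 starved mutant libraries, against 7.46, 7.60 and 9.32 CPM in the starved wild type and 2.68, 23.4 and 37.6 CPM in the nutrient-rich mutant. The ratios of the starved mutant to these groups were 0.00348 (95% counting interval 8.8e-05 to 0.0196) and 0.00137 (95% counting interval 3.5e-05 to 0.00767), called at edgeR adjusted p = 0.01 and 0.00129. Without starved mutant replicate 2 or 3 the call of Dapma7bEVm009997t1 against the starved wild type was lost (adjusted p of up to 0.0674).

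Cuticle protein 6 (Dapma7bEVm003667t1) was at 28.7, 5.39 and 13.9 CPM in the starved mutant, against 104, 107 and 112 CPM in the starved wild type and 75.8, 75.3 and 100.4 CPM in the nutrient-rich mutant. It fell by 2.76 and 2.39 on the log2 scale (SEs 0.48 and 0.48, edgeR adjusted p = 0.0104 and 0.00642), with the first call lost without starved mutant replicate 3. Cuticle protein 10.9-like (Dapma7bEVm010292t1) was at 257, 106 and 166 CPM in the starved mutant, against 426, 491 and 392 CPM in the starved wild type (log2 fold change -1.31, edgeR adjusted p = 0.0441) and 129, 69.7 and 105 CPM in the nutrient-rich mutant (log2 fold change 0.80, edgeR adjusted p = 0.103). It was the 1 gene called lower than in the starved wild type and not in the other comparison. The 12.5-like gene Dapma7bEVm012505t1 was at 399, 104 and 227 CPM in the starved mutant, against 292, 383 and 314 CPM in the starved wild type, which overlapped, and 1099, 569 and 637 CPM in the nutrient-rich mutant (log2 fold change -1.66, edgeR adjusted p = 0.0242). That fall was lost without starved mutant replicate 3 and without nutrient-rich mutant replicate 1, in a fit on the 6 libraries alone and with scaling to library totals.

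Of the 5 genes named after a larval or pupal stage, 1 was higher and 2 lower than in the starved wild type, and 0 were higher and 3 lower than in the nutrient-rich mutant. The larval A2B gene Dapma7bEVm004406t1 was at 0.469, 0.154 and 0.259 CPM in the starved mutant, against 17.3, 16.1 and 15.9 CPM in the starved wild type and 3.87, 5.15 and 3.58 CPM in the nutrient-rich mutant. With log2 fold changes of -5.78 (SE 0.34, edgeR adjusted p = 0.000251) and -3.81 (SE 0.34, edgeR adjusted p = 0.000169) it was among the genes with the smallest adjusted p of the whole set. The larval 8-like gene Dapma7bEVm015129t1 fell to 38.8, 12.7 and 24.3 CPM in the starved mutant, against 128, 118 and 128 CPM in the starved wild type and 53.5, 66.8 and 72.3 CPM in the nutrient-rich mutant (log2 fold changes -2.31 and -1.35, edgeR adjusted p = 0.00497 and 0.0173). Its second call was lost without starved mutant replicate 3, in a fit on the 6 libraries alone and with scaling to library totals.

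The pupal G1A-like gene Dapma7bEVm011953t1 differed between food levels. It was at 38.0, 21.3 and 28.8 CPM in the starved mutant, against 532, 109 and 336 CPM in the nutrient-rich mutant (log2 fold change -3.47, SE 0.51, edgeR adjusted p = 0.00149). In the starved wild type it was at 32.3, 31.0 and 34.0 CPM, within the range of the starved mutant (log2 fold change -0.15, edgeR adjusted p = 0.916). The stage-named gene that was higher was larval 1-like (Dapma7bEVm001582t1), at 18.9, 56.1 and 35.1 CPM in the starved mutant, against 4.19, 3.70 and 6.37 CPM in the starved wild type (log2 fold change 2.94, edgeR adjusted p = 0.0147) and 6.65, 23.0 and 8.32 CPM in the nutrient-rich mutant (log2 fold change 1.55, edgeR adjusted p = 0.0587). Its call against the starved wild type was lost in some fits with 1 library left out. The 1 stage-named gene called higher became 0 without starved mutant replicate 2 or 3 or starved wild-type replicate 1 or 2.

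Of the 7 genes named after other fly cuticular proteins, 4 were higher and 0 lower than in the starved wild type, and 2 were higher and 1 lower than in the nutrient-rich mutant. The 4 became 1 without starved mutant replicate 2 or 3 or any 1 starved wild-type replicate, and the 1 became 0 without starved mutant replicate 3 and without nutrient-rich mutant replicate 1. Among 5 genes named 49Ag, Dapma7bEVm023889t1 had 0 reads in the starved wild type and 6.29, 17.4 and 12.6 CPM in the starved mutant, at least 122-fold higher (edgeR adjusted p = 0.0211). In the nutrient-rich mutant it was at 0, 3.27 and 0.842 CPM (log2 fold change 3.19, edgeR adjusted p = 0.0542). The first call was lost without starved mutant replicate 2 or 3 or any 1 starved wild-type replicate (adjusted p of up to 0.0767). The 49Ag gene with the most reads was called in neither comparison. Dapma7bEVm028414t1 was at 6.38, 5.24 and 5.87 CPM in the starved mutant, against 8.89, 7.80 and 6.47 CPM in the starved wild type and 5.36, 1.89 and 7.16 CPM in the nutrient-rich mutant, below each starved wild-type library and within the range of the nutrient-rich mutant.

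The single cuticlin, a zona pellucida domain protein known from the cuticle of nematodes, was cuticlin-1 (Dapma7bEVm005947t1). It was at 92.0, 156 and 117 CPM in the starved mutant, against 63.4, 62.1 and 68.9 CPM in the starved wild type and 49.9, 25.8 and 44.1 CPM in the nutrient-rich mutant. The starved mutant was above both groups in every library. The log2 fold change of 1.61 against the nutrient-rich mutant was called (SE 0.27, edgeR adjusted p = 0.00264), and that of 0.91 against the starved wild type was not (SE 0.26, edgeR adjusted p = 0.0707, called under 5 of 17 alternatives).

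Abundant genes were also among the 46 that neither comparison called. The 72Eb gene Dapma7bEVm029435t1 was at 736, 472 and 575 CPM in the starved mutant, against 445, 441 and 446 CPM in the starved wild type and 791, 368 and 595 CPM in the nutrient-rich mutant (log2 fold changes 0.42 and 0.02, SEs 0.27 and 0.27, edgeR adjusted p = 0.46 and 0.962). The 72Eb genes Dapma7bEVm028896t1 and Dapma7bEVm016050t1 had log2 fold changes of 0.39 and 0.34 against the starved wild type (SEs 0.23 and 0.20) and -0.03 and 0.01 against the nutrient-rich mutant (SEs 0.23 and 0.20). The 16.5-like genes Dapma7bEVm013854t1 and Dapma7bEVm018554t1 had -0.75 and -0.67 against the starved wild type (SEs 0.37 and 0.50) and -0.60 and -0.55 against the nutrient-rich mutant (SEs 0.37 and 0.50). For the 16.5-like genes the standard errors leave room for falls of over 1 log2 unit, and limma-voom with quality weights called both lower in both comparisons.

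Many of the genes shared a scaffold of the assembly, and their positions within a scaffold were not used. The feature identifiers carry a number after sc, read here as the scaffold of the authors' D. magna assembly, and the 117 genes fell on 26 scaffolds, with 10 genes that carried no such number. Of these genes, 83 were on the 9 scaffolds that held at least 4 of them. Scaffold 2581 held the most, 34 genes, among them endocuticle glycoproteins, of which 16 were higher and 1 lower than in the starved wild type and 12 were higher and 3 lower than in the nutrient-rich mutant. The 16 became 7 without starved wild-type replicate 1 or 2. The other 257 tested features of that scaffold had a median log2 fold change of -0.001 against the starved wild type, with 23 higher and 22 lower, and of 0.05 against the nutrient-rich mutant. Among the 81 tested genes outside this scaffold, 25 were higher and 11 lower than in the starved wild type, and 32 were higher and 13 lower than in the nutrient-rich mutant.

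Scaffold 311 held 12 unnumbered genes, 10 of them tested, of which 6 and 7 were higher and 0 and 0 lower in the comparisons with the starved wild type and the nutrient-rich mutant. Of the other 161 tested features there, 2 and 9 were higher and 7 and 18 lower. With any 1 library left out, at least 6 and 7 genes of this scaffold were higher. Dapma7bEVm010082t1, for example, is on this scaffold and met the limit of 10 reads through the starved mutant alone. Counts of higher genes per scaffold therefore follow in part from how the members were chosen, and the other features were not chosen so. Scaffold 1409 held 6 unnumbered genes, 3 and 4 of them higher and 0 lower, which became 1 and 1 without starved mutant replicate 2, the first also without starved mutant replicate 3 or starved wild-type replicate 1 or 2. Scaffold 24 went the opposite way. Of its 7 genes, 5 were 72Eb genes, and 4 and 5 genes were lower and 0 higher, with medians of -1.74 and -1.94, where the other 580 features there had 0.04 and -0.10. The 4 became 0 without starved mutant replicate 3 or any 1 starved wild-type replicate, and the 5 became 3 without starved mutant replicate 3.

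The other set of 72Eb genes on 1 scaffold, 6 on scaffold 1877, differed from the set on scaffold 24. It held 1 higher gene and 0 lower genes in each comparison, with medians of 0.41 and 0.01. Its called gene was Dapma7bEVm028897t1, at 73.5, 100.4 and 83.4 CPM in the starved mutant, against 36.4, 25.6 and 43.2 CPM in the starved wild type and 32.3, 24.4 and 43.2 CPM in the nutrient-rich mutant (log2 fold changes 1.29 and 1.36, edgeR adjusted p = 0.0173 and 0.00481). Scaffold 1361 carried both CB5 genes, the 10.9-like gene and the larval 8-like and 5-like genes. Of these 5, 4 were lower than in the starved wild type and 3 lower than in the nutrient-rich mutant, with 0 higher. The 4 became 2 without starved mutant replicate 2 or 3. Scaffolds 1725, 84 and 1036 held 5, 4 and 4 genes, with 1, 1 and 0 higher and 0 lower against the starved wild type, and 0, 3 and 0 higher and 0, 0 and 1 lower against the nutrient-rich mutant. The single genes called higher than in the starved wild type on scaffolds 1877, 1725 and 84 were lost without starved mutant replicate 2 or 3 or starved wild-type replicate 1 or 2.

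**Figure D4:**
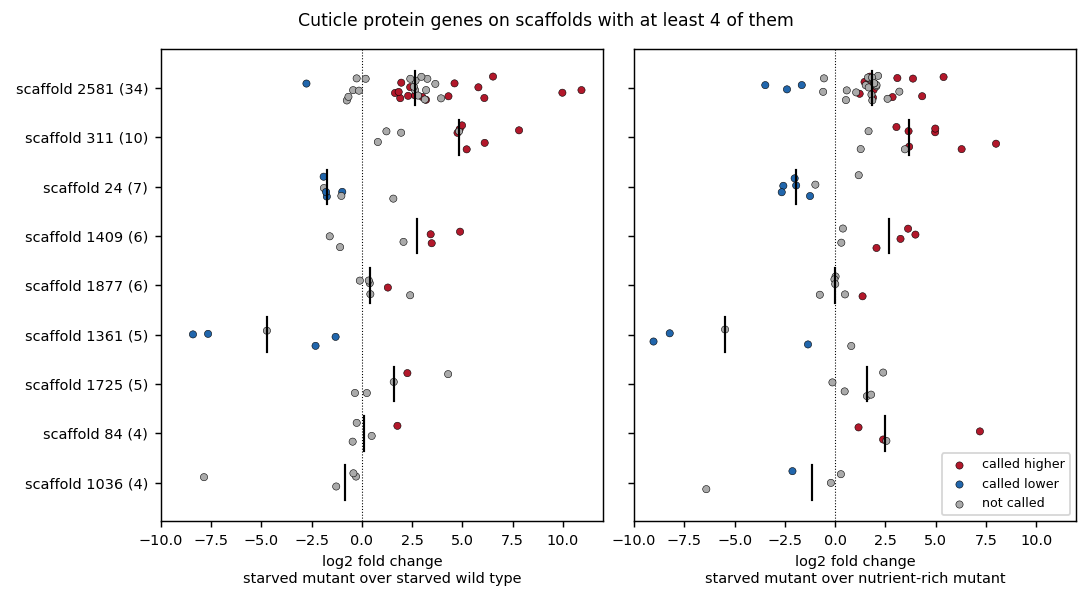
log2 fold change of the tested genes on the 9 scaffolds with at least 4 cuticle protein genes, starved mutant over starved wild type (left) and over nutrient-rich mutant (right). Points are genes, vertical bars medians, and the number tested is in brackets. Scaffold 311 lies to the right of 0, scaffolds 24 and 1361 mostly to the left, and scaffold 2581 mostly to the right.

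Several members switched between 0 and many reads among libraries of 1 group. At 0 reads in 1 library and at least 50 in another of the same group there were 8 of 117 genes (6.84%), against 1.225% of the 19916 features with at least 50 reads in all. These shares are not like for like, since every member had a mean of at least 10 reads over the 9 libraries. Among the 8 genes, a set of 3 unnumbered genes on scaffold 311 switched in turn, and their values are uncertain. Dapma7bEVm027443t1 had 469, 880 and 0 reads in the starved mutant and 0 in the other 6 libraries. Dapma7bEVm000330t1 had 0, 0 and 698 reads in the starved mutant, 0, 151 and 206 in the starved wild type and 30, 55 and 87 in the nutrient-rich mutant. Dapma7bEVm022899t1 had 153 reads in starved wild-type replicate 1 and 0 in the other 8 libraries. Each library thus had reads on exactly 1 of the 3 genes. The sum of the 3, formed after their values were seen, was 44.0, 67.8 and 60.3 CPM in the starved mutant, against 15.6, 15.1 and 19.6 CPM in the starved wild type and 2.98, 6.91 and 9.16 CPM in the nutrient-rich mutant. The deposited RPKM of all 3 genes was 0 in all 9 libraries, as in 0.427% of the 17819 features with a mean of at least 10 reads. How the counting assigned these reads was not tested, and near-identical copies can share reads.

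Among the other switching genes, the SgAbd-1 genes Dapma7bEVm001663t1, Dapma7bEVm013035t1 and Dapma7bEVm010100t1 had 0 reads in nutrient-rich mutant replicate 1 and 426, 311 and 147 in replicate 2. In the starved mutant they had 606, 1290 and 940 reads, 369, 732 and 768 reads, and 184, 823 and 457 reads. None of these 3 genes was called in either comparison, with edgeR adjusted p of 0.094 to 0.491. SgAbd-1 genes are many and alike in name, and how reads were divided between near-identical copies was not tested.

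Cuticle protein genes varied more between libraries of a group than all tested features did, in a comparison not matched for level. The median SD of log2 CPM was 0.53 over the 115 tested cuticle protein genes and 0.19 over all tested features in the starved mutant, 0.33 and 0.17 in the starved wild type, and 0.80 and 0.44 in the nutrient-rich mutant. In the starved mutant the libraries differed in one direction. Of the 41 genes that were higher than in the starved wild type, replicate 2 was the highest starved mutant library in 36 and replicate 1 the lowest in 40. Of the 12 lower genes, replicate 1 was the highest in 10 and replicate 2 the lowest in 9. The same order held for all called features, of which replicate 2 was the highest starved mutant library in 88.1% of the higher and the lowest in 70.4% of the lower ones. The labels give the age and the clutch of the animals but not their stage in the moult cycle, so the part of moult stage in this spread and in the differences between the groups was not tested.

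Libraries were also compared over the 115 tested genes. Pearson's r was 0.91 to 0.94 between starved mutant libraries and 0.95 to 0.96 between starved wild-type libraries, and 0.44 to 0.76 between a starved mutant and a starved wild-type library, where r over all tested features was 0.86 to 0.93. Between a starved mutant and a nutrient-rich mutant library it was 0.53 to 0.79. These are across genes, which are not independent replicates. Starved wild-type and nutrient-rich mutant libraries, which differ in both genotype and food, had r of 0.81 to 0.92. These ranges, and their contrast with all features, follow in part from how the genes were chosen. Of the 117 genes, 31 were members through the starved mutant alone. Most like the gene with the most reads, the 72Eb gene Dapma7bEVm027612t1, over the 9 libraries were 2 uncharacterized genes, Dapma7bEVm027463t1 (r = 0.997) and Dapma7bEVm000776t1 (r = 0.995), the 72Eb gene Dapma7bEVm027611t1 (r = 0.995), a duplex-specific nuclease (Dapma7bEVm001771t1, r = 0.990) and an endoribonuclease-like gene (Dapma7bEVm010310t1, r = 0.987). These r values describe 9 libraries of 3 groups and share the group differences.

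Enzymes of chitin synthesis, counted over the whole body and not in the epidermis alone, were partly higher in the starved mutant. For this list and those that follow, 2.92% of all tested features were higher and 4.24% lower than in the starved wild type. Against the nutrient-rich mutant these shares were 11.1% and 12.0%. Of 8 tested genes of chitin synthesis, 3 were higher and 0 lower than in the starved wild type (median log2 fold change 0.15), and 3 were higher and 1 lower than in the nutrient-rich mutant (median 0.04). The largest rise was that of UDP-N-acetylhexosamine pyrophosphorylase (Dapma7bEVm009900t1), which makes the activated sugar that chitin is built from. It was at 297, 727 and 550 CPM in the starved mutant, against 83.8, 86.8 and 83.5 CPM in the starved wild type and 86.6, 83.8 and 131 CPM in the nutrient-rich mutant (log2 fold changes 2.63 and 2.38, edgeR adjusted p = 0.00214 and 0.000963). The other 2 that rose in both comparisons were glutamine--fructose-6-phosphate aminotransferase (Dapma7bEVm000306t1), at the entry to that pathway, and chitin synthase 2 (Dapma7bEVm002546t1), which polymerises the sugar. Chitin synthase 2 was at 228, 472 and 360 CPM in the starved mutant, against 104, 94.8 and 122 CPM in the starved wild type and 96.2, 147 and 123 CPM in the nutrient-rich mutant. The gene that was lower than in the nutrient-rich mutant was phosphoacetylglucosamine mutase (Dapma7bEVm010720t1, log2 fold change -0.98, edgeR adjusted p = 0.00271), an enzyme of the same pathway.

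Of 14 tested genes of chitin deacetylation and organisation, which modify chitin or bind it, 3 were higher and 1 lower than in the starved wild type (median 1.15), and 8 were higher and 1 lower than in the nutrient-rich mutant (median 2.17). Without nutrient-rich mutant replicate 2, 7 were higher than in the starved wild type, where 1206 of all features were higher in place of 546. Chitin deacetylase 4 (Dapma7bEVm004719t1) rose most against the starved wild type, at 82.9, 226 and 159 CPM in the starved mutant, against 13.0, 12.0 and 15.5 CPM in the starved wild type and 5.56, 54.2 and 22.8 CPM in the nutrient-rich mutant (log2 fold changes 3.53 and 2.51, edgeR adjusted p = 0.0188 and 0.0248). An obstructor-E gene (Dapma7bEVm018777t1), of a family that organises chitin in the fly cuticle, rose most against the nutrient-rich mutant (log2 fold change 3.80, edgeR adjusted p = 0.00161). Chitin deacetylase 3 (Dapma7bEVm005890t1) fell in both, to 0.844, 0.462 and 0.432 CPM in the starved mutant, against 7.15, 8.60 and 13.5 CPM in the starved wild type and 1.19, 20.6 and 11.1 CPM in the nutrient-rich mutant (edgeR adjusted p = 0.0288 and 0.00911).

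Genes of chitin breakdown, which also act at moulting and in the gut, moved both ways. Of 34 tested, 4 were higher and 3 lower than in the starved wild type (median -0.47), and 6 were higher and 6 lower than in the nutrient-rich mutant (median -0.26). The counts against the nutrient-rich mutant were not far from the shares of all tested features, 11.1% higher and 12.0% lower. Leaving out nutrient-rich mutant replicate 2 gave 4 of these genes higher and 8 lower than in the starved wild type. Of all features, 1472 were lower in that fit in place of 791. A chitinase 17 gene (Dapma7bEVm015858t1) rose most against the starved wild type, at 15.3, 27.3 and 21.7 CPM in the starved mutant, against 0, 2.20 and 2.66 CPM in the starved wild type and 15.2, 28.0 and 17.3 CPM in the nutrient-rich mutant (log2 fold changes 3.70 and 0.09, edgeR adjusted p = 0.0159 and 0.934). Another chitinase 17 gene (Dapma7bEVm014956t1) fell most against the starved wild type, to 0.0938, 0 and 0.173 CPM in the starved mutant, against 2.04, 2.20 and 2.19 CPM in the starved wild type (log2 fold change -4.46, edgeR adjusted p = 0.00856). The largest rise against the nutrient-rich mutant was that of a brain chitinase and chia gene (Dapma7bEVm000368t1, log2 fold change 2.43, edgeR adjusted p = 0.000277) and the largest fall that of chitinase 1 (Dapma7bEVm001857t1, log2 fold change -5.45, edgeR adjusted p = 0.0196).

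Of 4 tested apical matrix genes, 3 were lower and 0 higher in each comparison, all of them named Dusky-like, zona pellucida domain proteins that shape the surface of epidermal cells in Drosophila. Dapma7bEVm010243t1 fell most, to 0.750, 0.539 and 0.518 CPM in the starved mutant, against 63.8, 61.0 and 77.6 CPM in the starved wild type and 7.74, 42.4 and 54.4 CPM in the nutrient-rich mutant (edgeR adjusted p = 0.00141 and 0.000762). Of 39 tested genes of tanning and cross-linking, which harden and darken cuticle, 2 were higher and 2 lower than in the starved wild type, and 7 were higher and 6 lower than in the nutrient-rich mutant. These counts were not far from the shares of all tested features. Those were 2.92% higher and 4.24% lower than in the starved wild type, and 11.1% and 12.0% against the nutrient-rich mutant. When nutrient-rich mutant replicate 2 was left out, 5 tanning genes were higher and 4 lower than in the starved wild type. Of all features, 1206 were higher and 1472 lower in that fit, in place of 546 and 791. A chorion peroxidase gene (Dapma7bEVm015157t1) fell most against the starved wild type (log2 fold change -3.47, edgeR adjusted p = 0.0408), and dual oxidase maturation factor 1 (Dapma7bEVm001821t1) rose most (log2 fold change 2.13, edgeR adjusted p = 0.00262). The gene that rose most against the nutrient-rich mutant was tyrosine 3-monooxygenase (Dapma7bEVm009554t1), which starts catecholamine synthesis, at 67.5, 47.3 and 59.8 CPM in the starved mutant, against 6.85, 4.27 and 9.05 CPM in the nutrient-rich mutant (log2 fold change 3.10, edgeR adjusted p = 0.000127). The largest fall there was that of a chorion peroxidase-like gene (Dapma7bEVm027728t1), with 0, 0 and 0.0864 CPM in the starved mutant, against 0.695, 15.3 and 15.7 CPM in the nutrient-rich mutant (edgeR adjusted p = 0.0033).

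Genes of the moulting hormone response changed in both directions. Of 22 tested, 4 were higher and 5 lower than in the starved wild type (median 0.28), and 9 were higher and 5 lower than in the nutrient-rich mutant (median 0.44). Eclosion hormone (Dapma7bEVm007374t1), a neuropeptide that triggers the shedding of the old cuticle in insects, rose most in both comparisons. It was at 29.0, 48.3 and 37.8 CPM in the starved mutant, against 3.58, 4.20 and 5.52 CPM in the starved wild type and 1.79, 0.503 and 0.842 CPM in the nutrient-rich mutant (log2 fold changes 3.11 and 5.15, edgeR adjusted p = 0.00148 and 9.42e-05). The other 3 that rose against the starved wild type were cytochrome P450 18a1 (Dapma7bEVm003686t1), which inactivates ecdysteroids in Drosophila, a nuclear receptor FTZ-F1 gene (Dapma7bEVm011018t1) and the ecdysone receptor (Dapma7bEVm015282t1), with log2 fold changes of 1.98, 1.33 and 0.66 (edgeR adjusted p = 0.0017, 0.018 and 0.0116), and all 3 were also higher than in the nutrient-rich mutant.

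The largest fall in the moulting hormone list against the starved wild type was that of ecdysone-induced protein 78C (Dapma7bEVm004624t1), to 2.35, 0.693 and 1.73 CPM in the starved mutant, against 15.02, 19.5 and 18.1 CPM in the starved wild type (log2 fold change -3.47, edgeR adjusted p = 0.00231). The nuclear receptor HR3 (Dapma7bEVm009766t1) fell to 1.03, 2.08 and 1.55 CPM in the starved mutant, against 14.4, 14.9 and 15.7 CPM in the starved wild type and 4.76, 19.99 and 20.4 CPM in the nutrient-rich mutant (log2 fold changes -3.25 and -3.25, edgeR adjusted p = 0.00759 and 0.00249). Another HR3 gene (Dapma7bEVm028386t1) fell most against the nutrient-rich mutant (log2 fold change -4.56, edgeR adjusted p = 0.0122). These genes act in the ecdysone response of insects before FTZ-F1. Of 2 epidermal transcription factor genes, grainyhead (Dapma7bEVm018464t1) was lower than in the starved wild type (log2 fold change -0.77, edgeR adjusted p = 0.00679) and had -0.58 against the nutrient-rich mutant, just short of the fold limit.

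**Figure D5:**
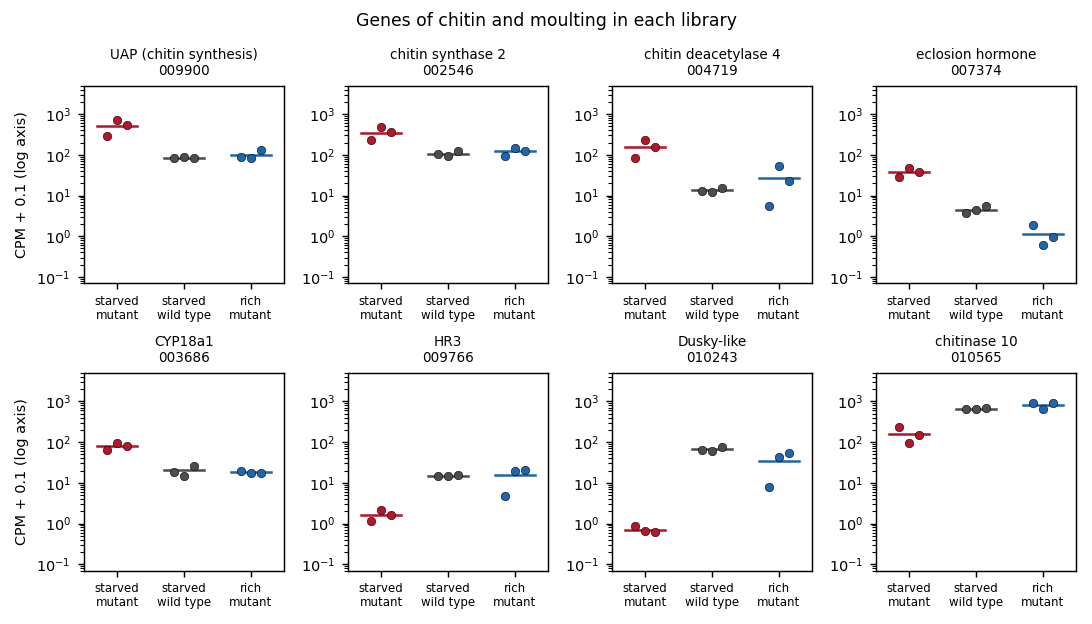
CPM + 0.1 (log axis) of 8 genes of chitin and moulting in each library, with the group mean as a bar. UDP-N-acetylhexosamine pyrophosphorylase (UAP), chitin synthase 2, chitin deacetylase 4, eclosion hormone and CYP18a1 are highest in all 3 starved mutant libraries, and HR3, the Dusky-like gene and a chitinase 10 gene (240.4, 94.9 and 147 CPM in the starved mutant, 649, 646 and 693 CPM in the starved wild type) are lowest there.

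Markers of other tissues moved with the groups to differing degrees, and their part in the results on cuticle genes was not tested. Their counts stand beside 2.92% of all tested features higher and 4.24% lower than in the starved wild type. Against the nutrient-rich mutant these shares were 11.1% and 12.0%. Of 22 muscle genes, 0 were called against the starved wild type, and 7 were higher and 0 lower than in the nutrient-rich mutant. Among 68 neuron and eye genes, 1 was higher and 1 lower than in the starved wild type, and 26 were higher and 2 lower than in the nutrient-rich mutant. Summed levels of muscle genes were 16310 to 17610 CPM in the starved mutant, 15250 to 17010 CPM in the starved wild type and 9914 to 13280 CPM in the nutrient-rich mutant. Yolk protein genes, made for the eggs, were lower in the starved mutant, in 11 of 18 against the starved wild type and 13 of 18 against the nutrient-rich mutant, with sums of 15790 to 17430 CPM in the starved mutant, 36070 to 46910 CPM in the starved wild type and 73060 to 96050 CPM in the nutrient-rich mutant. Of 86 digestive peptidase genes, 2 were higher and 12 lower than in the starved wild type, and 6 were higher and 31 lower than in the nutrient-rich mutant. Leaving out nutrient-rich mutant replicate 2 gave 4 digestive peptidase genes higher and 33 lower than in the starved wild type. It gave 3 neuron and eye genes higher than in the starved wild type, and 4 lower than in the nutrient-rich mutant. Of all features, 1206 were higher and 1472 lower than in the starved wild type in that fit, in place of 546 and 791.

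Of 36 genes of DNA replication and mitosis, 2 were higher and 0 lower than in the starved wild type, and 0 were higher and 2 lower than in the nutrient-rich mutant. Their sum was 1588 to 2076 CPM in the starved mutant, 1141 to 1288 CPM in the starved wild type, 1430 and 1588 CPM in nutrient-rich mutant replicates 3 and 1, and 4184 CPM in nutrient-rich mutant replicate 2. Of 31 germ line genes, 1 was higher and 0 lower than in the starved wild type, and 4 were higher and 1 lower than in the nutrient-rich mutant, with 5053 CPM in nutrient-rich mutant replicate 2 and 1918 to 2867 CPM in the other 8 libraries. The 4 were near the share of all tested features that were higher than in the nutrient-rich mutant, 11.1%. Without nutrient-rich mutant replicate 2, which was left out after the data were seen, 16 of the replication genes and 5 of the germ line genes were higher than in the starved wild type, and 60 cuticle protein genes were higher and 15 lower. Calls rose over all features too, from 546 higher and 791 lower to 1206 and 1472 of 19358 tested. Against the other 2 nutrient-rich mutant libraries, 5 replication genes were higher, 9 germ line genes were higher and 2 lower, and 59 cuticle protein genes were higher and 16 lower. Of all features, 2778 were higher and 2732 lower there, in place of 2078 and 2241.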

How the data were processed

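The authors mapped paired-end reads of poly(A)-enriched libraries to the D. magna genome of wFleaBase with CLC Genomics Workbench 12. For 47109 features the authors deposited the unnormalized read count and the RPKM. OmicsBox 1.2.4 is named for the annotation. They also deposited fold changes and FDR p-values of their own tests, which were not used. Which genome build it was is not given in the sources, and 0 per-sample columns were left unused. RPKM of 3 members was 0 although reads were counted on them.

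A gene ID with several features (23 of the 117 members) was represented by the feature with the highest mean count. The test was that of edgeR 4.0.16 in R 4.3.3 on counts (filterByExpr, TMM, quasi-likelihood F-test, 1 fit of 9 libraries, group as factor, Benjamini-Hochberg adjustment over 18675 features), calls needing 1.5-fold and an adjusted p below 0.05. CPM are counts scaled by TMM. The fit was tested on simulated data. Ratios to a group at 0 reads use a floor of 3 reads over the group, and those to a group with 1 to 3 reads have exact 95% counting intervals. Alternatives were DESeq2 1.42.0, limma 3.58.1 (voom with quality weights), other scaling and filters, the 6 libraries of a comparison, a replicate block, summed features and each library left out.

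The members and the lists of name groups, pathways and tissues were chosen with earlier results of these data known. Named genes are, per comparison, the 8 largest rises and 6 largest falls among called members and the 4 smallest adjusted p, the 10 with the most reads, the leading gene of each name group, the 5 most read genes called by neither, and in other lists the largest called rise and fall. Further genes were named after their values were seen, in particular Dapma7bEVm027760t1, Dapma7bEVm005277t1, Dapma7bEVm005611t1, Dapma7bEVm028897t1, Dapma7bEVm010292t1, Dapma7bEVm001582t1, the switching genes, and the remaining genes of chitin and moulting.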

Additional observations from a re-analysis of the deposited data

How the results depend on the processing

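Scaling by DESeq2 size factors, DESeq2, the unfiltered table, scaling to library totals and summed features kept the counts of higher and lower cuticle protein genes within 1.5 times of 41 and 12 against the starved wild type and of 44 and 16 against the nutrient-rich mutant. With limma-voom and quality weights 66 were higher and 20 lower than in the starved wild type, of 4181 features called, and 67 were higher than in the nutrient-rich mutant. All features called against the starved wild type were 1337 in the reported test, 2117 with DESeq2 and 2593 with the 6 libraries alone. Leaving out 1 library gave 20 to 60 higher, 5 to 15 lower and 515 to 2678 features called against the starved wild type, and 35 to 59 higher and 11 to 17 lower against the nutrient-rich mutant. Scaling to library totals gave 3446 features higher and 1138 lower than in the nutrient-rich mutant, in place of 2078 and 2241, with the median of all features at 0.30 in place of -0.067, and 626 higher and 589 lower than in the starved wild type, in place of 546 and 791. Outside scaffold 2581, 25 were higher than in the starved wild type, and limma on log2(RPKM + 0.5) found 10 lower than in the nutrient-rich mutant, both chosen after seeing the data. No called member changed sign under these alternatives. With the replicate number as a block, 36 were higher and 13 lower than in the starved wild type (1036 features called), and 49 were higher and 17 lower than in the nutrient-rich mutant (3814 features called). Whether libraries of the same number shared a round is not given in the sources. Of 9 correlations of same-numbered libraries, 2 were over 0.1 (range -0.10 to 0.18), and the 18 other pairs had -0.18 to 0.15. With 3 libraries a group these correlations cannot exclude a shared round. The 3 libraries a group, of 5 pooled animals each, limit what was detectable, and genes with few reads most. Intervals cover counting error only.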
